A study of Homo sapiens with 6 samples.

Results

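MIAT and 9 other well-studied long non-coding RNAs, NEAT1, MALAT1, NORAD, TUG1, PVT1, CYTOR, KCNQ1OT1, LINC-PINT and MIR22HG, were followed in cells treated with an inhibitor of poly(ADP-ribose) breakdown. They are 10 of the 60708 gene identifiers counted, found by their Ensembl identifiers, and all 10 were among the 20409 genes with enough counts to be tested. MIAT was chosen on its log2 fold change between the treatments, already known from these counts, and the others as familiar members of the class. The levels and differences of the 10 RNAs between the treatments are therefore given as a description, with confidence intervals and no test.

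The study compared U2OS cells, an established wild-type osteosarcoma line, after 4 days in the solvent DMSO or in 25 µM PDD00017273, a compound that blocks the enzyme poly(ADP-ribose) glycohydrolase (PARG). Treated libraries are called PARGi here. Each group had 3 libraries, stated to be biological triplicates, and both were grown in DMEM with serum and antibiotics. PARG trims poly(ADP-ribose) chains off proteins, and the series concerns its part in the turnover of TARG1, another ADP-ribose hydrolase.

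Long non-coding RNAs are transcripts that are not translated into a known protein. Many stay in the nucleus, where some form the core of a nuclear body, as NEAT1 does in paraspeckles, or gather in one, as MALAT1 does in nuclear speckles, the stores of splicing factors. Others act in the cytoplasm as binding platforms for proteins, as NORAD does for the repressor PUM2. Some silence neighbouring genes on their own chromosome, as KCNQ1OT1 does in an imprinted domain, and some are the precursors of microRNAs, as MIR22HG is of miR-22.

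MIAT and NORAD carry repeated short motifs by which they are best known, and the densest stretch of each is shown because the motif is the clearest feature of these RNAs that the counts do not use. MIAT, also called Gomafu, holds repeats of TACTAAC, the branch point sequence bound by the splicing factor SF1 and by the splicing regulator QKI. NORAD holds repeats of TGTANATA, the recognition element of PUM2. The sequences below are from GENCODE 29 transcripts on GRCh38, read 5′ to 3′ on the transcript strand, with capitals marking the motif.
MIAT, exon 5 of 5, chr22:26672009-26672248, plus strand: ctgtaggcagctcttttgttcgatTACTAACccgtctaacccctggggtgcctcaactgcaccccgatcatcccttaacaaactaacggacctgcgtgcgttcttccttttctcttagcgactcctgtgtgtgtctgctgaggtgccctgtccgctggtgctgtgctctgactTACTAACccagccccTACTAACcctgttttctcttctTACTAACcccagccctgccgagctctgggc
NORAD, its single exon, chr20:36049492-36049731, minus strand: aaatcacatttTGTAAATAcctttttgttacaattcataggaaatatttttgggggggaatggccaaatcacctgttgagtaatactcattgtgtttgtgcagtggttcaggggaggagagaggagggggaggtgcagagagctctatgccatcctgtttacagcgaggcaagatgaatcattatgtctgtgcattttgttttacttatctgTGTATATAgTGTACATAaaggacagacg
The longest MIAT transcript held 7 TACTAAC matches in 10143 bases, and 4 of them lie in the 240 bases printed. No other of the 3758 tested long non-coding RNA genes held as many in its longest transcript, and 3.81% held at least 1. The longest NORAD transcript held 15 TGTANATA matches in 5339 bases, with 3 of them in the 240 bases printed. Of the 3758 transcripts, 12.7% held any, and 0.106%, NORAD among them, held at least 15. On the opposite strand each RNA held 1 match of its motif. Of all 240-base windows cut from these transcripts, 0.516% held TACTAAC and 2.14% held TGTANATA. A match describes the letters only.

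The libraries held 60286931 to 80605145 counts, and the scaling factors between them ran from 0.9953 to 1.007. Levels are given as counts-per-million (CPM) after this scaling. The mesenchymal genes VIM (2476 CPM in DMSO), SPARC, CDH2 and RUNX2 were abundant and COL1A2 was at 13.0 CPM, while TWIST1, also mesenchymal, averaged at most 0.0201 CPM in either group. Of the markers of other cell types, CD3E, LYZ and ALB averaged at most 0.0232 CPM, and the epithelial EPCAM, KRT5 and CDH1 (3.53, 1.33 and 0.718 CPM in DMSO), the leukocyte PTPRC (1.2 CPM) and the hepatocyte APOA1 (0.614 CPM) were low but present. DMSO replicate 2 stood apart in a small set of genes: 12 of the 10143 genes at 10 CPM or more lay over 20% below all other 5 libraries there, and no other library had such a gene.

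Compared per kilobase of exon, so that RNAs of different length can be ranked, NORAD was the highest of the 10 in DMSO, at 97.6 ± 2.51 CPM per kb (SD, n = 3), followed by MALAT1 at 67.4 ± 7.74. TUG1, first found as a taurine-induced RNA in retinal cells, was at 22.3 ± 0.263 CPM per kb, and MIAT at 13.3 ± 1.04. MIR22HG (8.47 ± 0.273) and NEAT1 (8.19 ± 1.45) could not be ordered, because the 3 NEAT1 libraries, from 6.52 to 9.18, spanned those of MIR22HG. PVT1 was at 4.84 ± 0.124 CPM per kb and CYTOR at 1.35 ± 0.0545. LINC-PINT (0.114 ± 0.016) and KCNQ1OT1 (0.103 ± 0.00507) were the lowest and their libraries overlapped. In PARGi MIAT, at 6.37 ± 0.0565, lay below MIR22HG, at 7.94 ± 0.315, and inside the range of NEAT1, 6.24 to 7.26. The libraries of LINC-PINT and KCNQ1OT1 overlapped there as well. The length of KCNQ1OT1, annotated as 1 unspliced transcript of 91.7 kb, sets its place in this ranking. Each length is that of the merged exons of all annotated transcripts, so the annotation bears on the other places as well. For CYTOR it was 17.7 kb, while the longest CYTOR transcript has 7512 bases.

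The name abundant holds for part of the list only. Among the 3758 tested long non-coding RNA genes, ranked by CPM in DMSO without regard to length, MALAT1 was 1, NORAD 2, TUG1 6, NEAT1 9 and MIAT 12. PVT1, MIR22HG and CYTOR stood at ranks 75, 78 and 88. KCNQ1OT1 was 253 and LINC-PINT 1461, with 34 to 76 counts in a library, so that its values rest on little depth. MALAT1, NORAD, TUG1 and NEAT1 together made up 85.5% to 90.1% of the counts of the 10. As a share of all counts, the 10 RNAs took 0.172% to 0.189% in DMSO and 0.151% to 0.162% in PARGi.

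**Figure D1:**
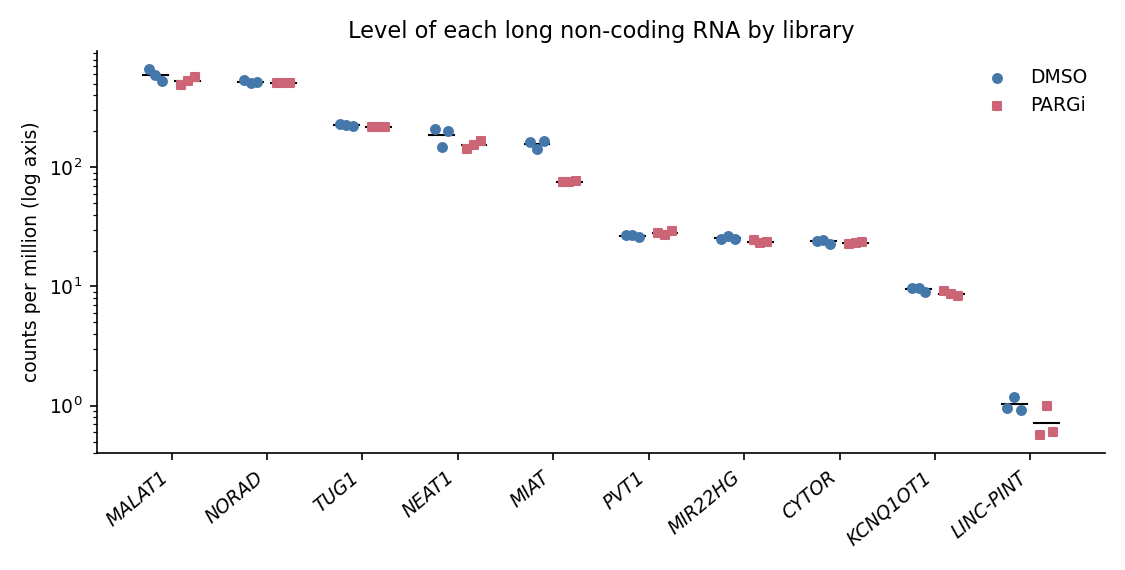
Level of each of the 10 RNAs in every library, in counts-per-million on a log axis, with circles for DMSO, squares for PARGi and a line at the mean of each group. MIAT is the one RNA whose groups stand clearly apart at this scale, near 157 CPM in DMSO and near 75.4 CPM in PARGi.

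MIAT lay lowest in PARGi relative to DMSO. It is a spliced nuclear RNA first described at a locus associated with myocardial infarction, and it lies on chromosome 22 at 26646428 to 26676475 on the plus strand (GENCODE 29, GRCh38). Its level was 163, 143 and 165 CPM in DMSO replicates 1, 2 and 3, and 74.9, 75.0 and 76.1 CPM in PARGi replicates 1, 2 and 3. The lowest DMSO library was thus far above the highest PARGi library, and the PARGi libraries were nearly equal. The log2 fold change was -1.06 (SE 0.0383, 95% confidence interval -1.14 to -0.981), a level lower by 52.1% on the fitted scale. Of all tested genes, 0.769% had a larger absolute difference. In bulk RNA such as this, fewer cells with the transcript and less of it per cell cannot be told apart.

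The libraries of NEAT1 and MALAT1, neighbours on chromosome 11 that serve paraspeckles and nuclear speckles, overlapped between the treatments. NEAT1 was at 209, 149 and 202 CPM in the DMSO libraries and at 142, 154 and 165 CPM in the PARGi libraries. DMSO replicate 2 lay inside the PARGi range, while the other two DMSO libraries lay above it. The log2 fold change was -0.28 (SE 0.0733, 95% confidence interval -0.429 to -0.126), and it was -0.42 without DMSO replicate 2 and -0.19 without DMSO replicate 1.
MALAT1 was at 666, 590 and 530 CPM in DMSO and at 491, 531 and 574 CPM in PARGi. Its highest PARGi library exceeded its lowest DMSO library. The log2 fold change was -0.16 (SE 0.0533, 95% confidence interval -0.272 to -0.0516), -0.08 without DMSO replicate 1 and -0.24 without DMSO replicate 3. The ratio of NEAT1 to MALAT1 counts was 0.314, 0.252 and 0.38 in DMSO and 0.29, 0.289 and 0.288 in PARGi, so it was nearly constant in the PARGi libraries and varied in both directions around that value in DMSO.

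NORAD, which restrains PUM2 and so helps to keep chromosome number stable, was at 536, 511 and 516 CPM in DMSO and at 507, 509 and 510 CPM in PARGi. The groups did not overlap but lay within a few percent of each other, with a log2 fold change of -0.03 (95% confidence interval -0.0845 to 0.0161). TUG1 was at 229, 227 and 224 CPM in DMSO and at 220, 219 and 217 CPM in PARGi. Here too every PARGi library lay slightly below every DMSO library, with a log2 fold change of -0.05 (95% confidence interval -0.102 to -0.00281). TUG1 lies on the same chromosome as MIAT, at 30969245 to 30979395, and the ratio of MIAT to TUG1 was 0.631 to 0.738 in DMSO and 0.341 to 0.35 in PARGi.

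The host and locus RNAs of medium level differed little. MIR22HG, the host transcript of miR-22 on chromosome 17, was at 24.8, 26.2 and 24.8 CPM in DMSO and at 24.7, 22.9 and 23.4 CPM in PARGi. Its groups were separated by a narrow margin, with a log2 fold change of -0.10 (95% confidence interval -0.182 to -0.01). PVT1, the RNA next to the MYC gene, was at 26.8, 27.1 and 25.8 CPM in DMSO and at 27.9, 27.1 and 29.4 CPM in PARGi. It was the single RNA of the 10 with a value above 0, a log2 fold change of 0.08 (95% confidence interval -0.000493 to 0.166), and its groups overlapped. CYTOR, an RNA raised in many tumours, was at 24.2, 24.7 and 22.8 CPM in DMSO and at 22.8, 23.3 and 23.5 CPM in PARGi. Its groups overlapped and its log2 fold change was -0.04 (95% confidence interval -0.128 to 0.0424). CYTOR has a near-identical copy on the same chromosome, MIR4435-2HG, and how reads matching both were counted is not given in the sources used here. MIR4435-2HG fell from 152 ± 2.11 to 142 ± 1.93 CPM (edgeR adjusted p = 0.00467 for a log2 fold change of -0.10, SE 0.0252), and whether CYTOR and its copy differ in response was not tested.

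The lowest of the 10 were the least certain. KCNQ1OT1 was at 9.78, 9.69 and 8.94 CPM in DMSO and at 9.20, 8.58 and 8.37 CPM in PARGi. The groups overlapped, and the log2 fold change of -0.12 (95% confidence interval -0.25 to 0.00726) turned to 0.03 with an offset for GC content and length. LINC-PINT, a p53-induced RNA, had 61, 76 and 69 counts in DMSO and 34, 73 and 48 counts in PARGi. PARGi replicate 2 lay among the DMSO libraries after scaling and the other two PARGi libraries lay below all 3. Its log2 fold change was -0.50 (SE 0.211, 95% confidence interval -0.94 to -0.0676), and -0.81 without PARGi replicate 2. LINC-PINT shares 1958 exonic bases on the same strand with the unnamed gene ENSG00000285106, so its count could lack reads from those bases. ENSG00000285106 did not pass the test (log2 fold change 0.13, adjusted p = 0.718). The other genes that overlap one of the 10 RNAs and were tested, MKLN1 at LINC-PINT (0.04, adjusted p = 0.404) and NCAL1 at CYTOR (0.57 at under 1 CPM, adjusted p = 0.286), did not pass either, apart from those near MIAT, KCNQ1OT1 and MIR22HG described below.

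**Figure D2:**
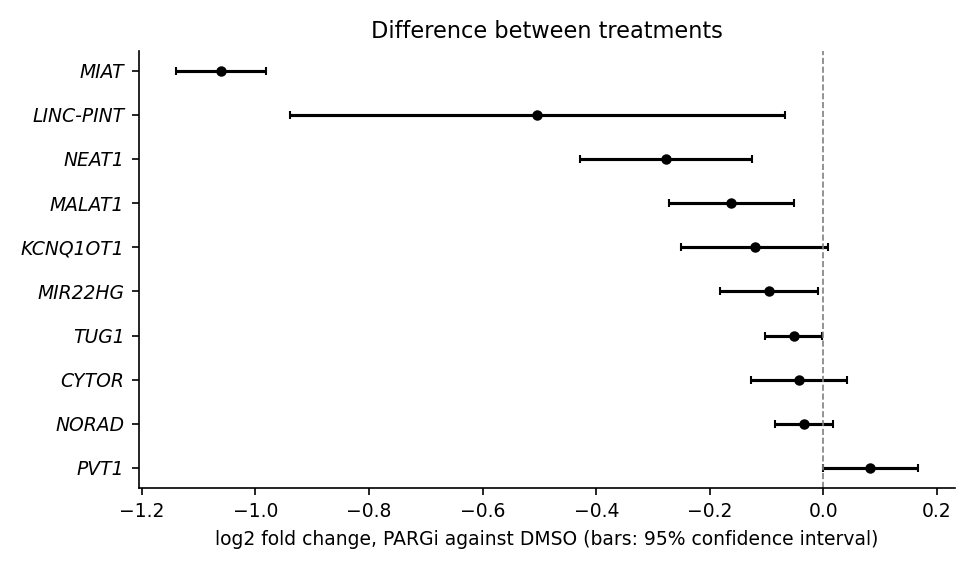
Log2 fold change of each RNA in PARGi against DMSO, with bars for the 95% confidence interval from the fit over all genes. MIAT, at -1.06, stands apart from the others, which lie between -0.50 and 0.08, and LINC-PINT has the widest interval.

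Of the 10 RNAs, 4 had groups that did not overlap (MIAT, NORAD, TUG1 and MIR22HG), all with PARGi lower. The groups did not overlap for 38.0% of the 20409 genes, PARGi being the lower group for 18.2% and the higher for 19.8%. In the edgeR fit 3 of the 10 passed an adjusted p of 0.05 (MIAT, NEAT1 and MALAT1), all lower. The same threshold was passed by 24.3% of the 20409 genes, lower in PARGi for 11.0% and higher for 13.2%. Since the list was drawn up with this contrast known, nothing is read from these counts. The count was 1, MIAT alone, without DMSO replicate 1 or without PARGi replicate 1.

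The spread between replicates, which did not enter the choice of the RNAs, was large for the nuclear RNAs NEAT1 and MALAT1. The coefficient of variation of NEAT1 over the DMSO libraries was 17.7%, against a median of 2.13% for the 1000 tested genes nearest to it in level. That of MALAT1 was 11.5% (median 2.14% for its 1000 neighbours in level) and that of MIAT 7.82% (median 2.13%). Over the PARGi libraries NEAT1 and MALAT1 again varied, by 7.53% and 7.80%, each more than 99.9% of the genes near them in level, while MIAT varied by 0.887%, a spread above that of 22.9% of the genes near it in level. TUG1 was steady in both groups, with 1.2% in DMSO and 0.531% in PARGi, and NORAD varied by 2.57% and 0.295%. LINC-PINT, at few counts, varied by 14.1% in DMSO (median 12.8% for its 1000 neighbours in level). In PARGi it varied by 32.7%, more than 99.1% of the genes near it in level. These spreads, each over 3 libraries, were not tested. DMSO replicate 2 gave the lowest DMSO value of both NEAT1 and MIAT but the middle one of MALAT1.

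**Figure D3:**
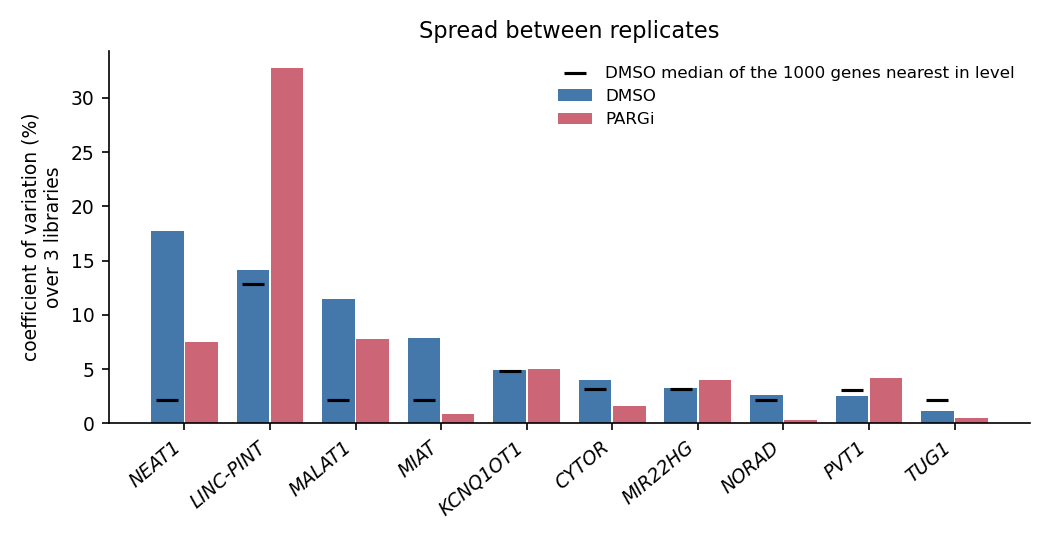
Coefficient of variation of each RNA over the 3 libraries of a group, in percent, with bars for DMSO and PARGi and a black dash at the DMSO median of the 1000 tested genes nearest in level. NEAT1, MALAT1 and MIAT exceed that median several-fold in DMSO, and TUG1 lies below it.

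The genes on either side of MIAT were not part of the list and were tested. CRYBA4 and CRYBB1, which encode beta-crystallins, structural proteins of the eye lens, lie 15.8 kb and 28.3 kb to the left of MIAT, CRYBA4 on the same strand and CRYBB1 on the other. CRYBA4 was at 15.4, 17.2 and 18.9 CPM in the DMSO libraries and at 8.69, 8.55 and 8.72 CPM in the PARGi libraries. CRYBB1 was at 9.28, 8.89 and 9.74 CPM in DMSO and at 4.62, 4.99 and 4.80 CPM in PARGi. Every DMSO library of both genes stood well above every PARGi library. CRYBA4 fell by 0.99 on the log2 scale (SE 0.0629; adjusted p in edgeR 2.83e-11) and CRYBB1 fell by 0.95 (SE 0.0681, adjusted p = 2.5e-10), and both calls were made in all 16 alternative fits.

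Set against these neighbours, MIAT kept a similar ratio to the crystallin genes in both treatments. The ratio of MIAT to CRYBA4 was 10.6, 8.3 and 8.74 in DMSO and 8.63, 8.77 and 8.73 in PARGi. That of MIAT to CRYBB1 was 17.6, 16.1 and 17.0 in DMSO and 16.2, 15.0 and 15.9 in PARGi. Both ratios overlapped between the treatments, whereas the ratio of MIAT to TPST2, the next protein-coding gene to the left, which encodes a tyrosylprotein sulfotransferase, was 0.539 to 0.623 in DMSO and 0.282 to 0.293 in PARGi. These ratios are a description, since MIAT was chosen for its difference.

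Beyond the crystallin genes the region held both kinds of gene. TPST2 (log2 fold change -0.02, adjusted p = 0.629) and TFIP11, which encodes a splicing factor (0.03, adjusted p = 0.466), did not pass the test, with 95% confidence intervals of -0.0693 to 0.0311 and -0.0246 to 0.083. HPS4, needed for lysosome-related organelles, fell by 0.15 (adjusted p = 0.000148). MIATNB, a non-coding RNA that begins inside MIAT and shares 221 exonic bases with it on the same strand, fell by 0.22 (SE 0.0595, adjusted p = 0.00829), from 10.1 ± 0.309 to 8.71 ± 0.424 CPM, and did not pass without PARGi replicate 3. How reads from the shared bases were counted is not given in the sources used here, and they could be missing from both genes. The ratio of MIAT to MIATNB was 13.7 to 16.6 in DMSO and 8.19 to 9.16 in PARGi. To the right of MIAT, LINC01422 at 182 kb fell by 0.57 (adjusted p = 0.0266), but it was at 0.924 CPM in PARGi and did not pass without DMSO replicate 1, PARGi replicate 2 or PARGi replicate 3. The unnamed gene ENSG00000235271 at 227 kb fell by 1.03 from 0.786 CPM (adjusted p = 0.00325). The overlapping antisense gene ENSG00000206028 had 80 counts in all 6 libraries and did not pass (adjusted p = 0.0823), nor did the pseudogene ISCA2P1 between MIAT and CRYBA4 (-0.26, adjusted p = 0.232).

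**Figure D4:**
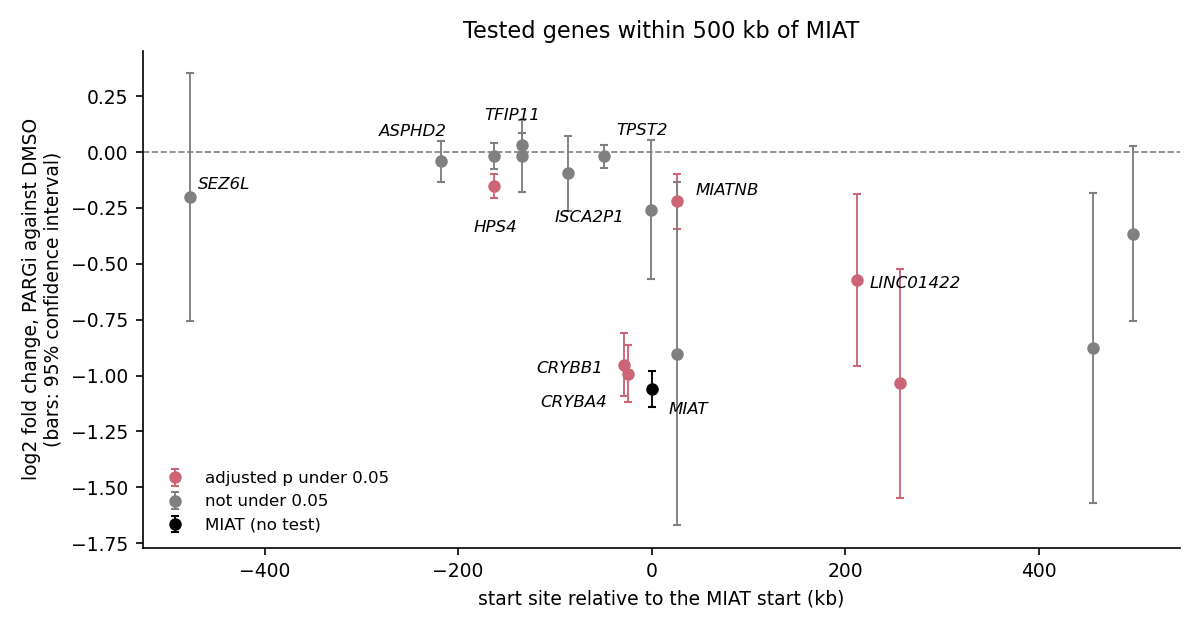
Log2 fold change in PARGi against DMSO of the 18 tested genes that lie within 500 kb of MIAT, by the distance of their start site from that of MIAT in kb, with 95% confidence intervals. MIAT, CRYBA4 and CRYBB1 lie near -1, while TPST2 and TFIP11 lie near 0.

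The promoters of MIAT and of the crystallin genes are shown because these 3 genes had like differences. Each is the 250 bases before and 50 bases after the start site, from RefSeq on GRCh38.p14, on the strand of the gene. Capitals mark matches, on either strand, of 6 motifs searched: TATAAA (the TATA box), the CCAAT box, the GC box with the letters GGGCGG, the E-box with the letters CACGTG, the AP-1 site with the letters TGANTCA and the cyclic AMP response element with the letters TGACGTCA. No 2 of these matches overlap in the windows printed.
MIAT, chr22:26646179-26646478, plus strand: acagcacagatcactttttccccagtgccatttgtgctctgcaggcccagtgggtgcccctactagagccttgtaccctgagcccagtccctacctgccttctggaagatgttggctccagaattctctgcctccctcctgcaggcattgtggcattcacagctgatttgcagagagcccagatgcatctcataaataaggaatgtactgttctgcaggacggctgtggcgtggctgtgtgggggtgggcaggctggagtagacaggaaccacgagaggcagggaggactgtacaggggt
CRYBA4, chr22:26621713-26622012, plus strand: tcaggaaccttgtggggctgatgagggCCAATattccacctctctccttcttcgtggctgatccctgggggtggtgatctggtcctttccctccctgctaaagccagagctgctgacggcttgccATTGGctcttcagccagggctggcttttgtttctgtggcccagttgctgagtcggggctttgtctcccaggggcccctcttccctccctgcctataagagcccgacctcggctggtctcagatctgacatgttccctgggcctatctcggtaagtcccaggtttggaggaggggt
CRYBB1, chr22:26617978-26618277, minus strand: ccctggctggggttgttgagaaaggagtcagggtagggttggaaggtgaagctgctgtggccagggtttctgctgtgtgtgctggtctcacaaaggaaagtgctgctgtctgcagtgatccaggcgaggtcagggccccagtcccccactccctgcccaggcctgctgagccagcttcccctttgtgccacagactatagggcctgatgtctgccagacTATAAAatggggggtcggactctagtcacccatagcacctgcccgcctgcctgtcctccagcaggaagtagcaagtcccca
The MIAT window held none of the 6, the CRYBA4 window held 2 CCAAT matches, one of them on the other strand, and the CRYBB1 window held 1 TATAAA match. Of the 35116 promoters in the table, 34.6% held CCAAT, 11.5% TATAAA, 45.0% GGGCGG, 7.26% CACGTG, 7.71% TGANTCA and 1.85% TGACGTCA. The 3 windows were poor in CpG, with 3, 6 and 3 CpG dinucleotides against a median of 14 over all promoters, at a GC content of 56.3%, 59.0% and 59.7% (median 58.7%). Genes nearby that did not pass the test had promoters of both kinds. The table's first TPST2 promoter held 35 CpG and 8 GGGCGG matches, the second held 3 CpG and none of the 6 motifs, and that of TFIP11 held 26 CpG and none of the 6.

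The 6 values of MIAT were compared with those of 14877 genes of at least 1 CPM, by the root-mean-square difference of centred log2 CPM. Genes without a symbol were left out of the ranking. The most alike of the rest were GPR55 (0.0654), CRYBB1 (0.0731), VCAN (0.085), APOD (0.0878) and H1-2 (0.0901). GPR55 encodes a lysophospholipid receptor, VCAN the matrix proteoglycan versican, APOD a lipid-binding apolipoprotein and H1-2 a linker histone. H1-2, for example, was at 35.8, 36.4 and 35.3 CPM in DMSO and at 18.6, 17.5 and 18.2 CPM in PARGi. With 6 libraries in 2 groups, likeness of this kind is mainly a like difference between the treatments.

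Around all 10 RNAs, 62 overlapping or nearest tested genes were examined, and 17 of them passed (27.4%), 5 higher and 12 lower, a share close to that of all tested genes. The count was 10 without PARGi replicate 2 and 10 without PARGi replicate 3. Near MIR22HG, WDR81, an endosomal regulator on the opposite strand, fell from 65.2 ± 1.87 to 52.2 ± 3.18 CPM (adjusted p = 3.62e-07 for a log2 fold change of -0.32). Near MALAT1, LTBP3, a TGF-beta-binding matrix protein gene, fell by 0.19 (adjusted p = 7.41e-05). The genes that rose near NORAD and NEAT1 did so slightly: EPB41L1, which encodes a cytoskeletal protein, rose by 0.15 (adjusted p = 0.000894), and FRMD8, a partner of the iRhom proteins, by 0.11 (adjusted p = 0.00491). PODXL, the podocalyxin gene near LINC-PINT, rose by 0.09 (adjusted p = 0.0142), but did not pass without DMSO replicate 1 or without PARGi replicate 2.

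The imprinted domain of KCNQ1OT1 was examined by a list of 12 genes, of which 9 were tested. CDKN1C, a cell cycle inhibitor that the paternal KCNQ1OT1 transcript is known to silence, was at 22.2, 21.9 and 21.9 CPM in DMSO and at 16.7, 14.1 and 14.8 CPM in PARGi. PHLDA2, a regulator of placental growth in the same domain, was at 44.9, 44.5 and 46.7 CPM in DMSO and at 61.9, 61.6 and 60.4 CPM in PARGi. Neither gene's groups overlapped, and they differed in opposite directions. CDKN1C fell by 0.54 (SE 0.0511, adjusted p = 2.53e-08) and PHLDA2 rose by 0.43 (SE 0.0306, adjusted p = 2.2e-10), while the transporter gene SLC22A18 fell by 0.21 (adjusted p = 0.00346) and SLC22A18AS, under 1 CPM, by 0.66 (adjusted p = 0.0269; it did not pass without DMSO replicate 1 or 2 or without PARGi replicate 2 or 3). In all, 4 of the 9 passed (44.4%, beside 24.3% of all tested genes), 1 higher and 3 lower. Their list had a median log2 fold change of -0.0043. KCNQ1 itself, which KCNQ1OT1 crosses in antisense, had 244 counts in all libraries and did not pass (adjusted p = 0.479).

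The transcripts of the protein partners of the nuclear RNAs differed little, with log2 fold changes from -0.111 to 0.0905 for paraspeckle and from -0.158 to 0.0752 for speckle and splicing proteins. Here and in the next paragraph the values are for the RNA of each gene, and protein levels are not part of these counts. Of 18 paraspeckle proteins, the partners of NEAT1, 3 passed (16.7%, a smaller share than over all tested genes), all lower (EWSR1 -0.11, HNRNPK -0.08 and HNRNPA1 -0.08), while the core proteins NONO (-0.04, adjusted p = 0.221) and SFPQ (-0.05, adjusted p = 0.112) did not. The count was 6 without DMSO replicate 2 and 1 without PARGi replicate 2. In DMSO replicate 2 the paraspeckle genes TAF15 and HNRNPH3 lay 30.6% and 10.2% below the lowest other library, and NEAT1 had its lowest DMSO value there. The part of that library's composition in the NEAT1 values was not tested. Of 23 nuclear speckle and splicing proteins, the company of MALAT1, 7 passed and all were lower. That is 30.4% of the list, beside 24.3% of all tested genes and 29.8% of the protein-coding ones. The smallest p belonged to QKI (-0.16, adjusted p = 3.76e-05), a splicing regulator, DDX39B (-0.15, adjusted p = 0.000435), an RNA export helicase, and PNISR (-0.12, adjusted p = 0.00106). The count was 4 without PARGi replicate 2. Of the proteins that bind the TACTAAC motif, SF1 did not pass (-0.06, adjusted p = 0.0612), while QKI passed and was lower, as given above. The medians of the lists were -0.039 for paraspeckle and -0.0256 for speckle proteins, beside -0.00704 for all tested genes.

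Of 8 NORAD partners, TOP1, a DNA topoisomerase, passed and was higher (0.12, adjusted p = 0.000711), whereas PUM2 did not pass (-0.06, 95% confidence interval -0.107 to -0.00342, adjusted p = 0.116). Of the 12 subunits of PRC2, the histone methyltransferase complex that several long non-coding RNAs are reported to bind, EZH1 was lower (-0.20, adjusted p = 0.000855) and MTF2 higher (0.09, adjusted p = 0.0364). MTF2 did not pass without DMSO replicate 2 or 3 or PARGi replicate 2 or 3. Of 17 genes for nuclear RNA decay and processing, ELAC2, a tRNA 3′ processing enzyme, passed and was higher (0.12, adjusted p = 0.00369), and 3 genes passed without DMSO replicate 2. The shares that passed were 12.5% of the NORAD partners, 16.7% of the PRC2 subunits and 5.88% of the decay genes. Each was below the 24.3% of all tested genes.

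Other RNAs of the same class were examined in lists drawn up with earlier results of these data known. Of 36 further well-known long non-coding RNAs, 30 were tested and 15 passed, 3 higher and 12 lower, with a median log2 fold change of -0.0864. The share that passed was 24.3% over all tested genes and 43.7% over the long non-coding RNA genes of at least 10 CPM. LINC00511 fell from 60.9 ± 1.04 to 53.8 ± 0.623 CPM (log2 fold change -0.18, adjusted p = 6.31e-05), SOX2-OT by 0.77 from 2.42 ± 0.214 CPM (adjusted p = 7.14e-05) and FENDRR by 1.51 from 0.791 ± 0.115 CPM (adjusted p = 0.000153). H19, the imprinted fetal RNA, rose by 0.53 to 3.48 ± 0.421 CPM (adjusted p = 0.00129), BCYRN1 by 0.37 (adjusted p = 0.000883) and LUCAT1 by 0.20 (adjusted p = 0.00383). The BCYRN1 groups overlapped and it did not pass with robust dispersions, and LUCAT1 did not pass without PARGi replicate 3. Not every gene of the list is annotated as a long non-coding RNA gene. BCYRN1, for example, is a small RNA of 200 bases and not among the 3758.

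Of 17 tested microRNA host genes besides MIR22HG, 4 passed (23.5%, a share close to the 24.3% of all tested genes). MIR222HG rose from 14.6 ± 0.893 to 18.2 ± 0.584 CPM (log2 fold change 0.32, adjusted p = 3.42e-05) and MIR34AHG, the p53-induced host of miR-34a, from 13.4 ± 0.497 to 16.5 ± 0.801 CPM (0.31, adjusted p = 6.81e-05). MIR99AHG fell by 0.40 (adjusted p = 0.000693) and MIR23AHG by 0.24 (adjusted p = 0.00515). Of 7 tested RNAs with a known link to p53, 3 belong to the 10 described (NEAT1, LINC-PINT and PVT1). Of the other 4, PURPL rose by 0.28 (adjusted p = 3.95e-06) and MIR34AHG rose as above, while TP53TG1 (0.17, adjusted p = 0.124) and DINOL (0.40, adjusted p = 0.139) did not pass.

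In the class as a whole, 464 of 3758 tested long non-coding RNA genes passed (12.3%; the share over all genes is given above). Of these, 111 were higher in PARGi (2.95% of the class) and 353 lower (9.39%), with a median log2 fold change of -0.111. The higher ones were 23.9% of the 464 calls, or 37.0% of the calls with an offset for GC content and length. Among the 238 with a mean of at least 10 CPM, 104 passed, 36 higher and 68 lower, and the median was -0.0455. Differences of at least 2-fold that passed numbered 67, of which 51 were lower. Of these 67 only MIAT had a mean of at least 10 CPM, a description, since MIAT was chosen for its difference. Leaving aside the 10 RNAs described and genes without a symbol, the genes of the class with the smallest p were LINC00662 (-0.47, adjusted p = 2.28e-10), CASC15 (-0.60, adjusted p = 2.56e-09) and DLGAP1-AS1 (-0.49, adjusted p = 7.33e-09) among those lower. Among those higher they were SFTA1P (0.58, adjusted p = 2.22e-09), NECTIN3-AS1 (0.32, adjusted p = 2.56e-09) and MYOSLID (0.62, adjusted p = 3.67e-08).

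**Figure D5:**
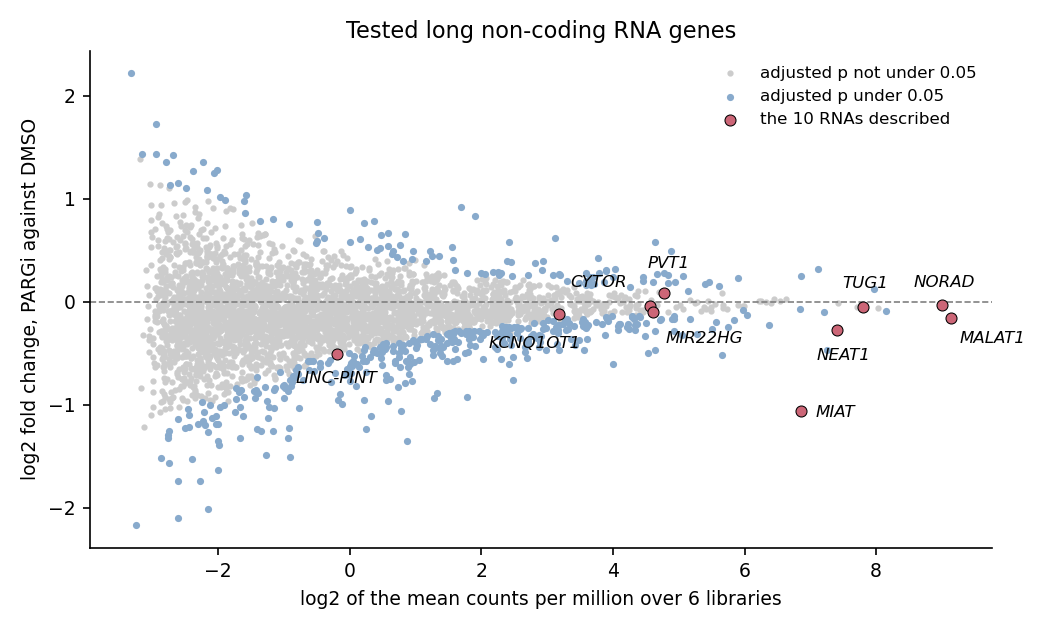
Log2 fold change in PARGi against DMSO of the tested long non-coding RNA genes, by the log2 of their mean counts-per-million over 6 libraries, with genes of adjusted p under 0.05 in blue and the 10 RNAs described in red. Differences beyond 1 in absolute value lie at low levels except for MIAT, at -1.06, which was chosen for its difference.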

How the data were processed

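Total RNA of 6 libraries was sequenced after preparation with a strand-specific kit, per the labels' protocols. The authors deposited raw whole-number counts per gene, 1 column per library, with no header and no row without a gene. The submitters' processing notes name cutadapt 1.18, STAR 2.7.3a, SAMtools 1.9, DESeq2 with version 3.12, deepTools and the build hg38; the annotation release, the strand setting and the treatment of reads shared by genes are not given in the sources used here. Of 335 genes lying inside an abundant gene of the opposite strand, 309 had counts, at a median of 0.0682% of that gene's count.

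Gene symbols were looked up in a name table, and positions, exonic lengths and classes from GENCODE 29 on GRCh38, in which 58396 of 60708 identifiers were found without their version. Long non-coding RNA genes are those so classed there. Promoters came from RefSeq GRCh38.p14, where 7 of the 10 RNAs had one.

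The fit used edgeR 4.0.16 in R 4.3.3 (filterByExpr, TMM, glmQLFit, two-sided glmQLFTest on treatment, all 6 libraries), with Benjamini-Hochberg adjustment over 20409 genes and a threshold of 0.05. The common biological coefficient of variation was 2.7%. The SE is the absolute log2 fold change over the square root of F, and the 95% confidence intervals come from the same fit. The p-values measure the spread between these libraries, and counting error is a lower limit since no molecular identifiers are recorded. In simulated counts over 20409 genes with 200 changed, the same script called 59.3% of 1.2-fold, 82.4% of 1.5-fold and 87.7% of 2-fold changes.

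The RNAs and lists were chosen with earlier results of these data known. Named genes were the 10 RNAs, genes overlapping them, MIR4435-2HG, and up to 3 called genes in each direction with the smallest p for each list, the neighbours and the class. The 5 genes of at least 1 CPM most like MIAT were also named. For the class and for likeness to MIAT, genes without a symbol were left out. TPST2, TFIP11, HPS4, ISCA2P1, LINC01422, ENSG00000235271, LTBP3, NONO, SFPQ, TAF15, HNRNPH3, SF1, PUM2, TP53TG1 and DINOL were added after their values were seen. Neighbours are tested genes that overlap an RNA or are among the nearest 3 on each side. The 16 alternative fits were DESeq2 size factors, upper-quartile scaling, DESeq2 1.42.0, limma-voom (limma 3.58.1), no filter, at least 10 counts in every library, a block for the replicate number, robust dispersions, a loess offset (span 0.3) on GC content and length, that offset with the block, and each library left out. Figures were drawn with matplotlib 3.10.9.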

Additional observations from a re-analysis of the deposited data

How the results depend on the processing

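Over the 16 alternative fits, which reuse the libraries on which MIAT was chosen, the log2 fold change ran from -1.12 to -1.02 for MIAT, from -0.42 to -0.19 for NEAT1 and from -0.24 to -0.08 for MALAT1, as a description. The number of the 10 RNAs that passed, 3 in the reported fit, was 5 with upper-quartile scaling, 1 with DESeq2, 1 with robust dispersions and 1 to 3 with a library left out. Called neighbours, 17 in the reported fit, were 7 of 26 when only the nearest gene on each side was taken, and 10 to 16 with a library left out. DESeq2 called 299 long non-coding RNA genes against 464. With upper-quartile scaling the called paraspeckle genes were 5, NORAD partners 2, PRC2 subunits 1 and decay genes 3. With the GC and length offset the p53-linked RNAs were 5, NORAD partners 2, PRC2 subunits 4 and decay genes 4. For PRC2, DESeq2 gave 1 and the fit without a filter 4. With a library left out the counts ran from 1 to 6 for paraspeckle genes, from 4 to 9 for speckle genes, from 1 to 3 for PRC2 and from 1 to 3 for decay genes. The cause of these differences was not tested. The share of higher calls among all genes was 54.5%, 40.5% with upper-quartile scaling and 64.6% with the GC and length offset. Upper-quartile scaling moved the median of all genes to -0.0315.

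Same-numbered libraries of the 2 groups did not deviate together over all tested genes (correlations -0.0059, 0.0157 and -0.0078). Whether the numbers mark libraries grown or prepared together is not given in the sources used here, and these correlations cannot decide it. With the replicate number as a block 2 of the 10 RNAs passed (MIAT and NEAT1) and 1 PRC2 subunit. With the block and the offset together, NORAD partners were 2, PRC2 subunits 4 and decay genes 2. In no fit did a called gene named here reverse. Depth limits LINC-PINT, with 34 to 76 counts per library. With 3 libraries in a group, differences of 1.2-fold were often missed in simulation (59.3% recovered).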
